A study of Rattus norvegicus with 6 samples.

Results

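Kupffer cell identity genes were followed in whole liver of rats with and without hepatic fibrosis. The 10 genes, Clec4f, Timd4, Marco, Cd163, Vsig4, Cd5l, Mrc1, Adgre1, Id3 and Folr2, were taken by symbol from a table of 19616 genes, and each matched 1 row. All 10 had a mean of at least 0.1 FPKM (fragments mapped to a gene, relative to its length and to all mapped fragments) and so belonged to the 14864 genes tested. Male SD rats of the FL group received CCl4 in olive oil by intraperitoneal injection, at 2 mL/kg with 2 injections per week over 5 weeks, whereas the CL group received the same volume of olive oil alone. RNA of 3 livers per group was sequenced after removal of ribosomal RNA, with 1 library per rat, namely CL5, CL6 and CL7 against FL2, FL5 and FL12. The age of the rats is not given in the sources used here. CCl4 is turned into a toxic radical by hepatocytes, so the model joins repeated hepatocyte injury with scarring.

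Kupffer cells are the resident macrophages of the liver. They sit in the sinusoids, where they take up bacteria, aged red cells and dying cells from portal blood, and they are kept in place by signals from endothelial cells, stellate cells and hepatocytes. Genes such as Clec4f, Timd4, Vsig4 and Cd5l mark this resident state in rodents, while Adgre1, which encodes the F4/80 antigen, is shared by many tissue macrophages and served here as the general macrophage gene for contrast.

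The liver label was checked against hepatocyte genes, of which Alb, the serum albumin gene, was the most abundant at 32272 ± 1010 FPKM (CL) and 24803 ± 572 FPKM (FL; SD, n = 3 each). All 10 Kupffer cell identity genes were above 0 in all 6 rats. The depth of each library is unknown here, because the values used are FPKM without counts. The most frequent value above 0 of the U6 genes, which recurred in steps, put the depth of the other rats at 0.656 to 0.84 of that of CL5, with FL2 and FL12 both at 0.677. Timd4, the least abundant of the 10 genes, therefore rests on the fewest reads for its length.

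Against the CL group, Marco and Folr2 were upregulated in the FL group by more than 2-fold, Id3 rose by slightly less, and Clec4f and Mrc1 had group means that lay close together. A call required an adjusted p under 0.05 in limma, over all genes tested, and a change of at least 2-fold on the log2(FPKM + 0.1) scale, which understates changes of low genes. By this rule 2 of 10 genes were higher, against 9.29% of all genes tested, and 0 of 10 were lower, against 0.935%. With no limit on the fold change, 3 of 10 were higher, against 16.9%, and 0 of 10 lower, against 1.94%. At an unadjusted limma p under 0.05 the counts were 8 of 10 higher, against 31.5%, and 0 of 10 lower, against 4.04%. The groups did not overlap, with the FL rats higher, for 4 of 10 genes against 35.7% of all genes, which is near the background, and they did so with the FL rats lower for 0 of 10 against 4.78%. The median log2 difference of the 10 genes was 0.76, while that of all genes tested was 0.29, and 8 of 10 lay above the latter. With median scaling and quantile normalization, which draw the median of all genes toward 0 by construction, it was 0.08 and -0.04, and the median of the 10 genes was 0.54 in both. With quantile normalization 453 genes were called higher and 231 lower, against 1381 and 139 without it. In bulk tissue, fewer cells of a type and less RNA per cell cannot be told apart.

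**Figure D1:**
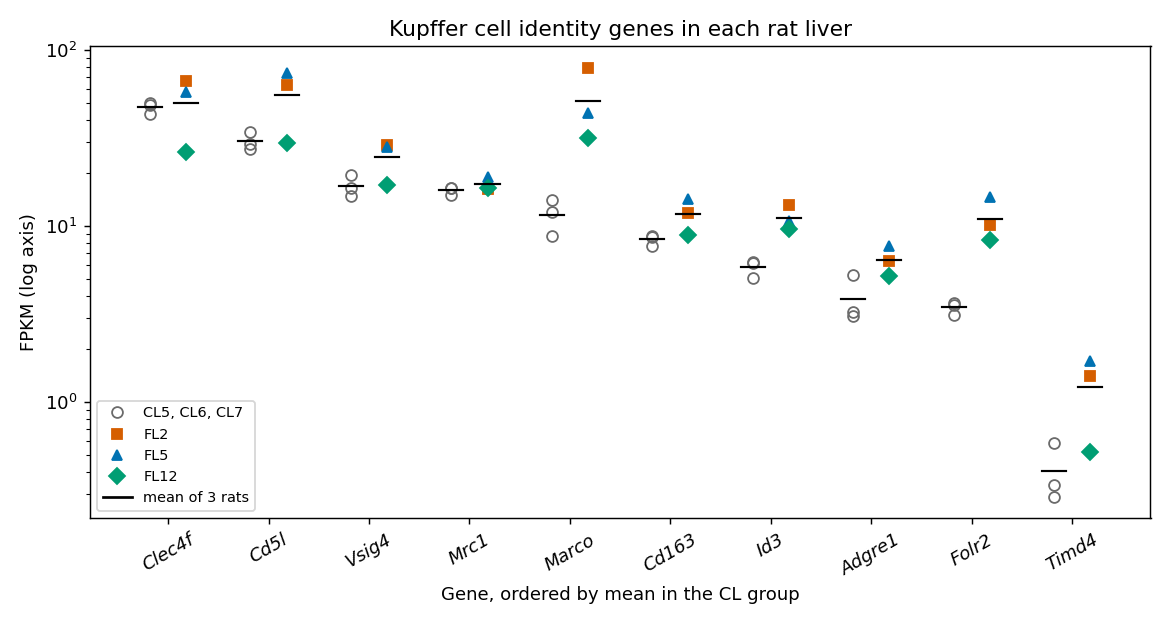
FPKM of the 10 Kupffer cell identity genes in each rat on a log axis, with open circles for the 3 CL rats, filled symbols for the 3 FL rats and black lines for group means. Marco and Folr2 are higher in every FL rat than in any CL rat, and FL12 (green diamonds) is the lowest FL rat for 9 of 10 genes.

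Among the receptors that capture microbes from blood, Clec4f (ENSRNOG00000013137, chromosome 4) encodes the C-type lectin that defines Kupffer cells in rodents. Its level was 49.9 (CL5), 43.2 (CL6) and 48.4 FPKM (CL7) against 66.6 (FL2), 57.4 (FL5) and 26.3 FPKM (FL12). The CL rats lay close together, while the FL rats fell on both sides of them, FL2 and FL5 above all CL rats and FL12 below all of them. The means were 47.2 ± 3.52 and 50.1 ± 21.1 FPKM (SD, n = 3 each), and the log2 difference was -0.02 (SE 0.31, adjusted p = 0.974 in limma). Its 95% confidence interval ran from -0.74 to 0.71, so changes of up to 0.598-fold or 1.63-fold were not excluded by these 6 rats. Without FL12 the log2 difference was 0.39 (adjusted p = 0.109).

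Marco (ENSRNOG00000049303), a class A scavenger receptor that binds bacteria and particles, showed the largest difference of the 10 genes over all 6 rats. It measured 8.74 (CL5), 14.1 (CL6) and 12 FPKM (CL7) against 79.0 (FL2), 43.9 (FL5) and 31.5 FPKM (FL12). Every FL rat was above every CL rat, and FL2 was the highest. The means were 11.6 ± 2.70 and 51.5 ± 24.7 FPKM (SD, n = 3 each), with a log2 difference of 2.06 (SE 0.32, adjusted p = 0.00690), or 4.17-fold. The deposited table places Marco on chromosome 16 and RefSeq (GRCr8) on chromosome 13, whereas the chromosomes were the same for the other 9 of 10 genes.

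Vsig4 (ENSRNOG00000038132, chromosome X) encodes a complement receptor with which Kupffer cells hold opsonized bacteria. Its level was 16.4 (CL5), 14.9 (CL6) and 19.4 FPKM (CL7) against 28.8 (FL2), 28.1 (FL5) and 17.01 FPKM (FL12). FL2 and FL5 were above the CL rats, but FL12 lay inside their range, so that the groups overlapped. The log2 difference was 0.51 (SE 0.21, 95% interval 0.02 to 1.005, adjusted p = 0.131) and did not pass the test.

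The genes for clearance of dying cells and hemoglobin had the same split among the FL rats. Timd4 (ENSRNOG00000038894, chromosome 10), a receptor for phosphatidylserine on dying cells, measured 0.59 (CL5), 0.34 (CL6) and 0.29 FPKM (CL7) against 1.40 (FL2), 1.72 (FL5) and 0.52 FPKM (FL12). FL2 and FL5 were above all CL rats, while FL12 was lower than CL5. The means were 0.407 ± 0.161 and 1.21 ± 0.621 FPKM (SD, n = 3 each), and the log2 difference of 1.28 (SE 0.44, adjusted p = 0.0786) did not pass and was 0.62 with a pseudocount of 1 and 0.71 with quantile normalization. Cd5l (ENSRNOG00000023068, chromosome 2), which encodes a secreted inhibitor of apoptosis made by tissue macrophages, measured 34.1 (CL5), 27.5 (CL6) and 29.2 FPKM (CL7) against 62.9 (FL2), 74.0 (FL5) and 29.8 FPKM (FL12). FL12 was again inside the CL range, and the log2 difference was 0.78 (SE 0.31, adjusted p = 0.114). Cd163 (ENSRNOG00000010253, chromosome 4), the receptor for complexes of hemoglobin and haptoglobin, measured 8.75 (CL5), 7.72 (CL6) and 8.70 FPKM (CL7) against 11.9 (FL2), 14.3 (FL5) and 8.93 FPKM (FL12). The groups did not overlap, but the lowest FL rat, FL12, was barely above CL5, and the log2 difference was 0.45 (SE 0.18, adjusted p = 0.110). It was 0.23 with median scaling and 0.22 with quantile normalization.

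Mrc1 (ENSRNOG00000018251, chromosome 17), the mannose receptor, is an endocytic receptor that sinusoidal endothelial cells also carry. Its levels lay close together in all 6 rats, with 16.5 (CL5), 16.4 (CL6) and 14.9 FPKM (CL7) against 16.2 (FL2), 19.0 (FL5) and 16.5 FPKM (FL12). The groups overlapped, and the log2 difference was 0.11 (SE 0.11, adjusted p = 0.516), with a 95% interval from -0.15 to 0.37, and it turned to -0.11 with median scaling. Folr2 (ENSRNOG00000019890, chromosome 1), the folate receptor beta of resident macrophages, measured 3.65 (CL5), 3.58 (CL6) and 3.14 FPKM (CL7) against 10.1 (FL2), 14.6 (FL5) and 8.31 FPKM (FL12). Each FL rat exceeded each CL rat by far more than the spread within the CL group. The means were 3.46 ± 0.276 and 10.99 ± 3.21 FPKM (SD, n = 3 each), and the log2 difference was 1.60 (SE 0.20, adjusted p = 0.00425), or 3.04-fold.

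Id3 (ENSRNOG00000026124, chromosome 5) encodes an inhibitor of helix-loop-helix transcription factors and is needed for Kupffer cell development. It measured 6.17 (CL5), 6.28 (CL6) and 5.09 FPKM (CL7) against 13.2 (FL2), 10.7 (FL5) and 9.56 FPKM (FL12). All FL rats were above all CL rats. The log2 difference of 0.91 (SE 0.16, adjusted p = 0.00936) passed the test, but at 1.88-fold it stayed under the 2-fold limit, and with quantile normalization its adjusted p was 0.0528. Adgre1 (ENSRNOG00000046254, chromosome 9), the general macrophage gene, measured 5.28 (CL5), 3.08 (CL6) and 3.26 FPKM (CL7) against 6.36 (FL2), 7.68 (FL5) and 5.19 FPKM (FL12). CL5 was higher than FL12, so the groups overlapped. The log2 difference of 0.74 (SE 0.23, adjusted p = 0.0632) did not pass, and without CL5 it was 0.98 (adjusted p = 0.0315).

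The order of the levels in FPKM changed between the groups. In the CL group it ran Clec4f, Cd5l, Vsig4, Mrc1, Marco, Cd163, Id3, Adgre1, Folr2 and Timd4. Neighbours whose CL rats overlapped were Vsig4 and Mrc1, Marco and Cd163, Id3 and Adgre1, and Adgre1 and Folr2. In the FL group Cd5l, Marco, Clec4f, Vsig4 and Mrc1 came at the top, each overlapping the next, followed by Cd163, Id3 and Folr2, which overlapped likewise, and then Adgre1 and Timd4. The 10 genes together summed to 150.0 (CL5), 137 (CL6) and 144 FPKM (CL7) against 296 (FL2), 271 (FL5) and 153 FPKM (FL12). Clec4f made up 33.3%, 31.5% and 33.5% of this sum in the CL rats, and 22.5%, 21.2% and 17.1% in the FL rats. Its share was thus lower in every FL rat than in any CL rat, although its FPKM was not. Marco went the other way, from 5.83%, 10.3% and 8.31% in the CL rats to 26.7%, 16.2% and 20.5% in the FL rats. Shares of 1 sum move against each other by construction.

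FL12 stood apart from FL2 and FL5. Of the 10 genes, 9 were lowest in FL12 among the FL rats and 0 were highest there, Mrc1 being the exception with its lowest FL value in FL2. Over all genes tested, FL12 was the lowest FL rat for 24.8% and the highest for 41.1%. FL12 exceeded all CL rats for 4 of 10 genes, against 62.5% of all genes, while FL2 did so for 9 of 10 against 49.2% and FL5 for 10 of 10 against 60.9%. After median scaling or quantile normalization, both added after the data were seen, all 10 genes were lowest in FL12. The general macrophage genes had FL12 lowest for 13 of 18, whereas FL12 was lowest for 1 of 8 genes of scar-associated macrophages and for 0 of 12 genes of monocytes and recruited macrophages. Without FL12, limma called 5 of 10 genes higher by at least 2-fold, against 6.5% of the 14671 genes then tested, and 7 of 10 with no limit on the fold change, against 9.58%. Those 5 were Marco, with a log2 difference of 2.36, Folr2 with 1.78, Timd4 with 1.75, Cd5l with 1.18 and Id3 with 1.01, and Vsig4 (0.76) and Cd163 (0.63) made up the 7. Leaving out any other single rat gave 2 of 10 higher by at least 2-fold. Since 9 of 10 genes were lowest in FL12 among the FL rats, their higher count without it follows in part from that choice. The part of FL12 in the results beyond these values was not tested.

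Against Adgre1, the ratio of FPKM within each rat does not depend on a scaling of all genes of a rat by 1 factor. The log2 ratios tested were formed from FPKM + 0.1, so for low genes such as Timd4 they are not fully free of such a scaling. Clec4f was 9.45, 14.0 and 14.8 times the FPKM of Adgre1 in CL5, CL6 and CL7, and 10.5, 7.48 and 5.06 times in FL2, FL5 and FL12. The groups overlapped through CL5, the CL rat with the highest Adgre1 level. The log2 ratio differed by -0.75 (SE 0.36, exact two-sided permutation p = 0.2, 0.45 adjusted over 9 genes), and ran from -1.01 without FL2 to -0.48 without FL12. With 3 rats against 3, the smallest p this test can give is 0.1, so it cannot reach 0.05. Marco was 1.66, 4.58 and 3.68 times Adgre1 in the CL rats, and 12.4, 5.71 and 6.06 times in the FL rats. All FL rats were above all CL rats, with a log2 difference of 1.32 (SE 0.57, exact permutation p = 0.1, 0.45 adjusted). Folr2 was 0.691, 1.16 and 0.963 times Adgre1 in the CL rats, and 1.59, 1.89 and 1.60 times in the FL rats. It did not overlap either, at 0.87 (SE 0.23, exact permutation p = 0.1, 0.45 adjusted). In all, 2 of 9 genes were higher relative to Adgre1 without overlap, against 3.59% of all other genes, and 0 of 9 were lower, against 17.2%. The other 6 ratios overlapped between the groups, from -0.63 for Mrc1 to 0.54 for Timd4 (exact permutation p = 0.2 and 0.3).

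Adgre1 is 1 gene of low level, so the other 17 general macrophage genes, which leave out Adgre1, served as another reference. Their mean log2 level was 3.11 ± 0.08 in the CL group and 4.26 ± 0.24 in the FL group (SD, n = 3 each), a difference of 1.15. Relative to it, Clec4f was lower in every FL rat than in any CL rat, with a log2 difference of -1.17 (SE 0.32). Mrc1 at -1.04 (SE 0.12), Cd163 at -0.71 (SE 0.12) and Vsig4 at -0.64 (SE 0.19) were likewise lower without overlap. Marco at 0.90 (SE 0.37) and Folr2 at 0.45 (SE 0.14) were higher without overlap. For each of these 6 genes the exact permutation p was 0.1, the smallest possible, and 0.167 adjusted over 10 genes. Relative to this reference, 63.7% of all genes tested were lower without overlap and 1.94% higher, so that 4 of 10 lower is less than the background share, while 2 of 10 were higher. Timd4, Cd5l, Id3 and Adgre1 overlapped between the groups, with differences from -0.42 for Adgre1 to 0.12 for Timd4. Relative to Cd68, a lysosomal glycoprotein gene of macrophages, 7 of 10 genes were lower in all FL rats than in any CL rat, which is near the 80.2% of all other genes, and 0 of 10 were higher, against 0.558%, with Clec4f at -1.71 and Adgre1 itself at -0.95, while Timd4, Marco and Folr2 overlapped.

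**Figure D2:**
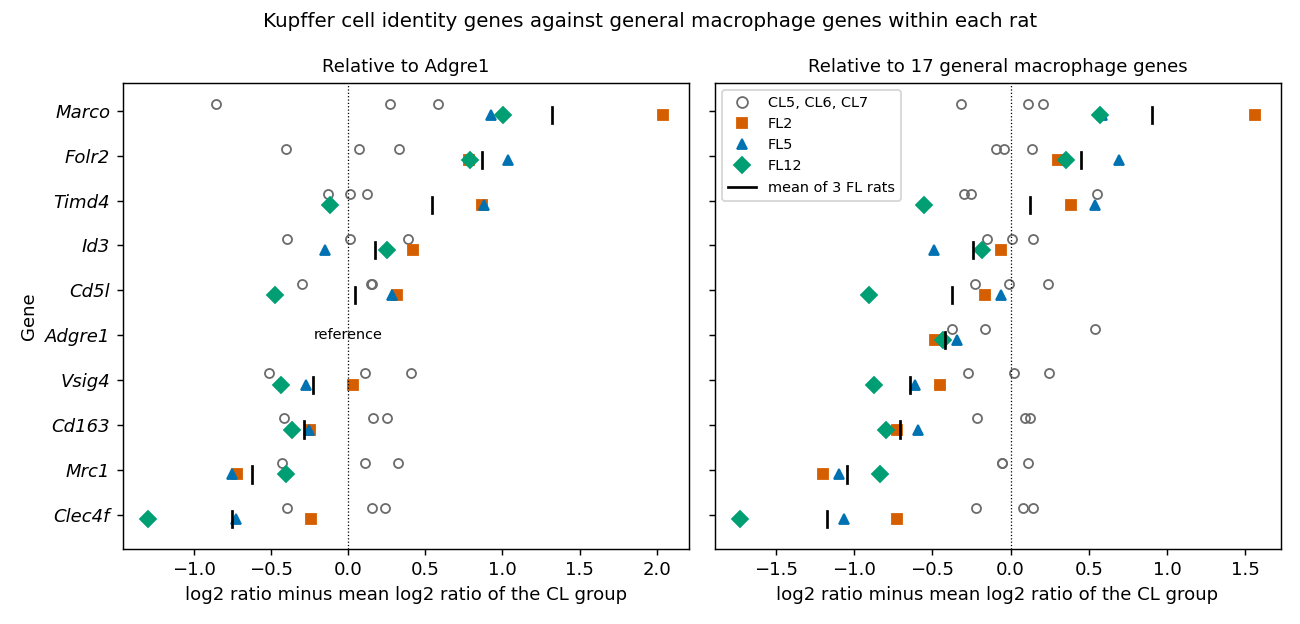
Log2 ratio of each Kupffer cell identity gene to Adgre1 (left) and to the mean of 17 general macrophage genes (right) in each rat, minus the mean log2 ratio of the CL group, with open circles for CL rats, filled symbols for FL rats and black bars for the FL mean. Marco and Folr2 lie to the right of the CL rats with both references, and Clec4f, Mrc1, Cd163 and Vsig4 lie to the left of them without overlap on the right panel only.

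In the general macrophage list, 11 of 18 genes rose by at least 2-fold, against 9.29% of all genes tested. With no limit on the fold change 14 of 18 rose, against 16.9%. The list had a median log2 difference of 1.17. Its summed level was 278 (CL5), 273 (CL6) and 270 FPKM (CL7) against 506 (FL2), 529 (FL5) and 375 FPKM (FL12). Ptprc, the leukocyte antigen CD45, rose by 1.46, Lyz2, a lysozyme, by 3.13, Laptm5, a lysosomal membrane protein gene, by 1.54 and Cd68 by 1.69 on the log2 scale (adjusted p = 0.00165, 0.00165, 0.00170 and 0.00172). Mpeg1, a pore-forming protein gene and the most abundant of the list at 91.6 FPKM, did not pass, with -0.17, nor did Cd14, a receptor for lipopolysaccharide, with the lowest value of the list, -0.70 (SE 0.39, adjusted p = 0.237). Of the FL rats, only FL12 (4.02 FPKM) lay outside the CL range of Cd14, while FL2 (12.2 FPKM) and FL5 (11.2 FPKM) were inside it. The monocyte and recruited macrophage list had a median of 1.83. Of its genes, 9 of 12 rose by at least 2-fold, against 9.29% of all genes tested. They included Itgam (2.19), an integrin chain of myeloid cells, Plac8 (1.10), Itgax (2.49) and Vcan (1.80), while the most abundant gene, Fn1, which hepatocytes also express, was at 396 FPKM and 0.10. The summed level of this list was 417, 367 and 374 FPKM in the CL rats and 577, 331 and 420 FPKM in the FL rats, most of it Fn1.

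The scar-associated macrophage list had a median of 3.49. Of its genes, 7 of 8 rose by at least 2-fold, against 9.29% of all genes tested. Gpnmb, with the highest mean of them over the 6 rats but not in the CL group, measured 4.25 (CL5), 3.65 (CL6) and 4.11 FPKM (CL7) against 64.7 (FL2), 144 (FL5) and 92.9 FPKM (FL12). Trem2, a lipid receptor, rose by 4.46, Mmp12, an elastase, by 5.77 and Lgals3, a galectin, by 2.52 on the log2 scale. The authors had reported Mmp12, Lgals3 and Spp1, all of this list, as upregulated in these same rats. The lists were chosen with earlier results known, so the count for this list is not independent of these data. The summed level was 25.5, 23.3 and 18.7 FPKM in the CL rats and 119, 304 and 190 FPKM in the FL rats. In this list FL2 was the lowest FL rat for 7 of 8 genes, against 51.2% of all genes tested. FL5 was the highest FL rat for 6 of 8 genes of this list and for 6 of 10 Kupffer cell identity genes, against 35.9% of all genes tested. FL2 was the highest for the other 4 of 10, Clec4f, Marco, Vsig4 and Id3, against 21.2%. How much these cell types contribute to the levels of the Kupffer cell identity genes was not tested.

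Genes of the Kupffer cell program that are not among the 10 moved in part. Of the transcription factors tied to Kupffer cells, 4 of 13 rose by at least 2-fold, against 9.29% of all genes tested. With no limit on the fold change 7 of 13 rose, against 16.9%. The list median was 0.90, and 0.47 with quantile normalization. Id1, a relative of Id3, rose by 1.62, Spi1, which encodes the myeloid factor PU.1, by 1.52, Runx3 by 1.19 and Klf4 by 1.06 on the log2 scale (adjusted p = 0.00593, 0.0127, 0.0283 and 0.0395). Nr1h3, the oxysterol receptor LXR alpha that upholds Kupffer cell identity, was at 54.4 ± 5.89 FPKM (CL) and 62.5 ± 4.57 FPKM (FL; SD, n = 3 each) and did not pass (log2 difference 0.20, adjusted p = 0.282). Its level is that of all cells of the liver and cannot be read as a level in Kupffer cells. Of niche signals and their receptors, 5 of 19 rows rose by at least 2-fold, against 9.29% of all genes tested. With no limit on the fold change 7 of 19 rose, against 16.9%. The list median of 0.31 was near that of all genes tested, 0.29. Csf1r, the receptor for the macrophage growth factor Csf1, rose by 1.13, Csf2ra by 1.45, Acvrl1, a receptor for bone morphogenetic proteins, by 1.29 and Tgfb1 by 1.18 on the log2 scale. Csf1r is also in the general macrophage list, so its rise is counted in both. The median of the niche list was 0.10 with median scaling and turned to -0.12 with quantile normalization. Of the genes for heme and iron handling, 2 of 9 rose by at least 2-fold, against 9.29% of all genes tested. These were Hmox1, heme oxygenase, at 1.06 and Slc11a1, a phagosomal metal transporter, at 1.09 on the log2 scale. The list median of 0.64 was 0.42 with median scaling. The summed level of this list, with Hp, haptoglobin, most abundant, was 4892, 4611 and 4952 FPKM in the CL rats and 14774, 4727 and 6574 FPKM in the FL rats, so that FL2 stood far above the others. Most of this sum was Hp and Hpx, hemopexin, at 7491 and 7001 FPKM in FL2. In whole liver it cannot be assigned to Kupffer cells.

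Markers of other sites where the 10 genes can be expressed gave these values. Of the sinusoidal endothelial list, 0 of 10 genes rose by at least 2-fold in limma, against 9.29% of all genes tested. At an unadjusted limma p under 0.05, 3 of 10 were higher, which is near the 31.5% of all genes. At the adjusted p 1 of 10 was higher, Stab2 (0.75, adjusted p = 0.0143), against 16.9%. The summed level of this list was 124, 120.4 and 112 FPKM in the CL rats and 147, 116 and 121 FPKM in the FL rats. Fcgr2b was its most abundant gene at 24.7 FPKM. Of the large peritoneal macrophage list, 0 of 5 genes were called in limma, against 9.29% of all genes tested called higher and 0.935% lower. In this list 1 of 5 was higher at an unadjusted limma p under 0.05, against 31.5%. Its most abundant gene was Lyve1 at 19.2 FPKM, which sinusoidal endothelium also expresses, and its summed level was 30.8, 36.4 and 30.4 FPKM in the CL rats and 70.6, 31.9 and 44.3 FPKM in the FL rats. In FL2 the largest part of the sum was Prg4, at 38.8 FPKM against 23.2 FPKM for Lyve1. Prg4 was at 7.72 FPKM in FL5 and 13.3 FPKM in FL12. In the hepatocyte list 0 of 9 genes were called in limma, against the same 9.29% and 0.935%. At an unadjusted limma p under 0.05, 1 of 9 was higher, against 31.5% of all genes, and 0 of 9 lower, against 4.04%. Limma gave the most abundant of these genes a wide SE, 0.98 for Alb, 0.48 for Tf and 0.42 for Ttr on the log2 scale. The groups did not overlap for Alb, Tf and Ttr, so the counts by limma cannot show that they were unchanged. The list had a median of 0.00, which moved to -0.22 with median scaling and 0.25 with quantile normalization. Its summed level, most of it Alb, was 53015 (CL5), 50380.3 (CL6) and 51022 FPKM (CL7) against 45454 (FL2), 44758 (FL5) and 43538 FPKM (FL12). Without Alb the sum was 19623, 18949 and 19030 FPKM in the CL rats and 21306, 19706 and 18329 FPKM in the FL rats, which lay on both sides of the CL rats. Alb, Ttr, Apob and Hnf4a, 4 of 9, were lower in all FL rats than in any CL rat, against 4.78% of all genes, and 2 of 9 were higher, against 35.7%. No gene of these lists was at 0 in all 6 rats.

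The 5 genes whose log2 levels were most like those of Clec4f over the 6 rats, among 10534 genes averaging 1 FPKM or more, were Parp14, Phyh, Dock5, Uba7 and RT1-T24-4, with Pearson's r from 0.980 to 0.992 and Spearman's rho from 0.886 to 1. All 5 had their lowest value in FL12. Of the other Kupffer cell identity genes, Cd5l (r = 0.673) and Vsig4 (r = 0.665) were the most like Clec4f, and Mrc1 (r = 0.160) and Folr2 (r = 0.161) the least. The size of r rests on FL12, since without it r was 0.813 for Folr2, 0.892 for Id3, 0.881 for Cd5l and 0.921 for Vsig4, and 0.306 for Mrc1, with Mrc1 and Folr2 again the least like Clec4f. By Spearman's rho over all 6 rats, Adgre1 and Cd5l were both at 0.771, and Timd4 and Vsig4 both at 0.714. Mrc1 was again the least like Clec4f, but Marco (0.429) and Id3 (0.486) lay below Folr2 (0.543). The 6 rats are shared by all of these values, and 6 points with 1 low rat give a high r easily. For the 5 genes most like Clec4f, r without FL12 ran from 0.907 (RT1-T24-4) to 0.963 (Parp14).

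The promoters of the 10 genes, taken as the 250 bases before the RefSeq start (GRCr8), all matched by symbol and were searched on both strands for short motifs. For Marco the symbol joins expression values placed on chromosome 16 to a promoter on chromosome 13, and whether both are the same locus was not tested. GAGGAAG, a form of the PU.1 motif, was in 5 of 10 promoters (Marco, Cd5l, Mrc1, Adgre1 and Id3), against 10.2% of 33469 promoters of that length. TGGGAA, a form of the RBPJ motif, was in 2 of 10 (Clec4f and Marco, at 2 places each), against 22.1%. CANNTG, the E-box bound by the helix-loop-helix factors that Id3 inhibits, was in 5 of 10 against 65.5%, TGCTGA, a part of the MAF motif, in 4 of 10 against 15.1%, AGGTCA, a part of nuclear receptor motifs, in 2 of 10 against 14.1%, and GTCTG, a SMAD motif, in 4 of 10 against 42.9%. Such matches describe letters and not bound sites. In the Clec4f promoter, a stretch of 54 bases occurs in 2 copies that follow each other directly, each with 1 TGGGAA. The longest repeated stretch in the other 9 promoters had 10 bases. Shown are Clec4f, on the minus strand of chr4:117696408-117696657, for this repeat, and the genes that passed the adjusted p, Marco (minus strand, chr13:34201256-34201505), Folr2 (minus strand, chr1:165630383-165630632) and Id3 (plus strand, chr5:153656041-153656290). They are written 5′ to 3′ with matches to GAGGAAG and TGGGAA, on either strand, in capitals.
Clec4f: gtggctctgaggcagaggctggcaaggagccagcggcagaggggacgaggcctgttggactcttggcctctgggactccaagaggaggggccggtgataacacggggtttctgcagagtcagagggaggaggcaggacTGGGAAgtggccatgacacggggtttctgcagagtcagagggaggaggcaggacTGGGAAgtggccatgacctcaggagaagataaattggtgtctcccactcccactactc
Marco: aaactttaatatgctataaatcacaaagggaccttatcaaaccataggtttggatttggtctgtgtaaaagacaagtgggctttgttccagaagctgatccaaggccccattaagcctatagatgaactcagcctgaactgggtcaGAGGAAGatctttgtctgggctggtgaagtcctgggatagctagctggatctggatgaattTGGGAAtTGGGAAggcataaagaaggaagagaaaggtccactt
Folr2: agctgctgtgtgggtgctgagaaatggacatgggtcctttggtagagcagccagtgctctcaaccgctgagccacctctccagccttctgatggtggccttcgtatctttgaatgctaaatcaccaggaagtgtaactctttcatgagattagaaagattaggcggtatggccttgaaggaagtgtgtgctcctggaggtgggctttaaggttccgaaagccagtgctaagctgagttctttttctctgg
Id3: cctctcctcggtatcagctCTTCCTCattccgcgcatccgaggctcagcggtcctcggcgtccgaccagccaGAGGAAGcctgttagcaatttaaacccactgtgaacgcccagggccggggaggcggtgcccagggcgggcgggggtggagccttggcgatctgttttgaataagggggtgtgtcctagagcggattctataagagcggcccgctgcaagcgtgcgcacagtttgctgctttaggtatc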

How the data were processed

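Total RNA of 6 rat livers, 3 CL and 3 FL, was sequenced after removal of ribosomal RNA. The authors trimmed the reads, aligned them with TopHat2 and, from reads with a unique location, made the FPKM values they deposited, with no further scaling between rats stated. The submitters' notes name the genome GRCh38, although the gene identifiers are those of the rat. The authors tested read counts with edgeR. Counts were not used here. 2 further columns of values carry no sample's name and were not used. FL was compared with CL by limma 3.58.1 with trend in R 4.3.3, on log2(FPKM + 0.1), over genes averaging 0.1 FPKM or more, with Benjamini-Hochberg adjustment, and the procedure was tested on simulated data. Ratios within rats were tested by exact two-sided permutation over 6 rats (Python 3.11.15, scipy 1.17.1), adjusted over the genes of each reference. The limits were an adjusted p of 0.05 and 2-fold. Named are all 10 identity genes, up to 4 called genes per list with the smallest adjusted p, the most abundant gene of each list of another cell type, and the 5 genes most like Clec4f. Nr1h3, Stab2, Msr1, Scarb1, Scarb2, Hp, Cd14, Ttr, Apob and Hnf4a were named besides, after their values were seen. So were Hpx, Tf, Prg4, Cxcr2, Ngp, Mpo, Elane and Camp. The members and lists were chosen with earlier results of these data known. Alternatives were pseudocounts of 1 and 0.01, no filter or a minimum mean of 1 FPKM, 2 scalings between rats (median and quantile), limma with a robust prior or with no trend, calls at any fold change, other references for the ratios, Spearman's rho, and leaving out each rat. Promoters came from RefSeq (GRCr8).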

Additional observations from a re-analysis of the deposited data

How the results depend on the processing

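Marco and Folr2 kept an adjusted p under 0.05 in limma in all 14 alternatives run for them, from 0.00542 to 0.0426 and from 0.00292 to 0.0286, and Id3 in 13 of 14 (0.00720 to 0.0528, the last with quantile normalization). Leaving out each rat in turn gave 2 to 5 of 10 genes higher by at least 2-fold (4.95% to 12.3% of all genes in those fits) and 3 to 7 with no limit on the fold change (6.27% to 21.5%), the highest counts of the 10 genes without FL12. The log2 difference of Clec4f ran from -0.28 without FL2 to 0.39 without FL12, and was 0.02 without CL5 and 0.00250 without CL7. It was -0.24 with median scaling and -0.11 with quantile normalization, and that of Mrc1 turned to -0.113 and -0.0645. Median scaling and quantile normalization also brought Vsig4 to 0.29 and 0.34, and quantile normalization brought Adgre1 to 0.43, while Cd163 was at 0.29 without FL5. Timd4 was below the filter at a mean of at least 1 FPKM and gave no value there. Among the ratios, that of Timd4 turned to -0.00169 with a pseudocount of 1. With Cd68 in place of Adgre1 Timd4 was at -0.41, Cd5l at -0.91, Id3 at -0.78 and Folr2 at -0.0869. Marco was then at 0.37, Cd163 at -1.24, Vsig4 at -1.18 and Mrc1 at -1.58. With the general macrophage list, Cd5l was at -0.38 and Id3 at -0.24. Leaving out each rat, the ratio of Marco ran from 0.89 without CL5 to 1.61 without CL6, that of Folr2 from 0.67 to 1.03, that of Timd4 from 0.37 to 0.87, that of Cd163 from -0.50 to -0.16, that of Vsig4 from -0.48 to -0.02, that of Mrc1 from -0.84 to -0.47, that of Cd5l from -0.11 to 0.30 and that of Id3 from -0.0233 to 0.37. Where a sign turned, the cause was not tested. Over all genes, the number called higher ran from 453 with quantile normalization to 1831 without FL2. No paired analysis was possible because the groups share only 1 rat number. Depth per rat was read only relative to CL5, and 3 rats per group leave wide intervals, such as that of Clec4f.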

Other observations

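Lists of other cells and functions gave values beside those of the Kupffer cell identity genes. The scavenger receptor list holds Marco, Cd163, Mrc1 and Timd4. Of its genes, 6 of 16 rose by at least 2-fold, against 9.29% of all genes tested. The list had a median log2 difference of 1.13, which was 0.64 with quantile normalization. Cd68 rose by 1.69, Cxcl16, a membrane chemokine that binds oxidized lipoprotein, by 1.98, Colec12, a collectin, by 1.84 and Mrc2, a collagen receptor of mesenchymal cells, by 2.52 on the log2 scale (adjusted p = 0.00172, 0.00296, 0.00612 and 0.00678 in limma). Marco had the highest mean of this list over the 6 rats, 31.5 FPKM, which rests on the FL group. In the CL group it was at 11.6 FPKM and below Scarb1, Scarb2, Mrc1 and, narrowly, Cd68 (11.7 FPKM). Its neighbour in function Msr1, also a class A scavenger receptor, was at 6.42 ± 0.777 FPKM (CL) and 8.26 ± 1.30 FPKM (FL; SD, n = 3 each) and did not pass (log2 difference 0.35, adjusted p = 0.151).

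Of the stellate cell and myofibroblast list, 5 of 9 genes rose by at least 2-fold, against 9.29% of all genes tested. Among them were Dcn, decorin, at 2.28, Des, desmin, at 2.28, and the collagen genes Col3a1 at 2.37 and Col1a1 at 4.24 on the log2 scale. Col3a1 was the most abundant at 161 FPKM. Col1a1 measured 17 FPKM in FL2, 101 in FL5 and 73.7 in FL12. Among the FL rats, 6 of 10 Kupffer cell identity genes were highest in FL5, against 35.9% of all genes tested. The other 4 of 10 were highest in FL2, against 21.2%. In the neutrophil list 3 of 5 genes rose by at least 2-fold (S100a8, S100a9 and Csf3r), against 9.29% of all genes tested, with S100a8 most abundant at 1.09 FPKM. S100a8 and S100a9 are also in the monocyte and recruited macrophage list. Cxcr2 and Ngp did not pass, and Mpo, Elane and Camp averaged under 0.1 FPKM and were not tested. In the lymphocyte list 1 of 8 rose by at least 2-fold, which is near the 9.29% of all genes tested. It was Cd4, by 1.25, at 14.96 FPKM the most abundant, which rat macrophages also express. In the cholangiocyte list 1 of 7 rose, which is again near that share. It was Spp1, by 4.53, which scar-associated macrophages also express, at 17.2 FPKM the most abundant.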
